A study of Mus musculus with 4 samples.

Results

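The p53 target genes described here are 10 mouse genes, namely Trp53, which encodes p53 itself, and Mdm2, Ccng1, Bbc3, Pmaip1, Bax, Sesn1, Phlda3, Zmat3 and Trp53inp1. They were found as every array probe whose gene name in the scanner files was one of these symbols, with older aliases accepted. In all, 17 probes matched, 0 of them through an alias, and they covered all 10 genes among 27975 gene names on the array. All 10 members passed the filter on dim signal and were among the 16451 genes tested, with 16 of their 17 probes.

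Mouse cells of strain C57BL/6, named MDFs in the labels, had been converted to iHep (induced hepatocyte-like) cells and were kept in 2D or 3D culture. Each of 2 independent preparations, iHep-1 and iHep-2, provided 1 array per culture, which makes 2 arrays in every group. A plus sign stands in the title of both 2D arrays without explanation, and what it marks cannot be told apart from culture. The labels do not say how many cultures or animals stood behind an array, which factors converted the cells, or what the letters of MDFs stand for.

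p53 is a transcription factor that accumulates after DNA damage and other stress and switches on genes for cell cycle arrest, DNA repair and cell death. One of its targets, Mdm2, encodes the ubiquitin ligase that marks p53 for breakdown, which closes a negative feedback loop. p53 is controlled largely through the stability and modification of its protein, so the level of its mRNA is not a measure of its activity. In cells pushed from one identity to another, p53 is known as a barrier to reprogramming.

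Of the member probes, 3 were printed on 10 spots of each array, which gives them a measured technical spread. Each of them is 60 bases long, and positions are those of mouse build mm9. No gene models of that build were used, so exons and UTRs are not named, but the Bax probe maps to a stretch of 156 bases and therefore crosses an intron. The probes are shown because the values of Trp53, Mdm2 and Bax that carry a spot error come from them.
Trp53 probe A_52_P491849 (chr11:69403134-69403193, plus strand): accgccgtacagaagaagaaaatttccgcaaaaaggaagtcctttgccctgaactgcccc
Mdm2 probe A_51_P201346 (chr10:117129725-117129784, minus strand): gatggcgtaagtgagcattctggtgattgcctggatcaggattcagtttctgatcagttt
Bax probe A_51_P254541 (chr7:52721469-52721624, minus strand): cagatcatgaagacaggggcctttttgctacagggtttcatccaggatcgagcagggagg

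p53 binds pairs of a 10-base half-site, and the promoters of the members were searched for it in RefSeq sequence of build GRCm38.p6, from 250 bases before to 50 bases after each gene's start. The consensus half-site reads the same on both strands. Promoter windows were found for 7 of the 10 members, and 5 of these 7 genes held an exact half-site (71.4%), against 9.55% of the 27025 genes with a window. Among 33 other p53 targets with a window, 8 held one (24.2%). A pair of half-sites at most 13 bases apart with up to 2 mismatches in all was present in 3 of the 7 members, namely Bax, Ccng1 and Sesn1, against 11.5% of genes. These matches are descriptions of short windows, and many p53 sites lie outside such windows, in first introns for example. Windows of 30 bases are shown to place the half-sites, whose bases are in capitals.
Bax (chr7:45467085-45467114, minus strand, half-site 201 to 192 bases upstream of the start): tgacaagcatatcccAGGCAAGCTTtgaac
Ccng1 (chr11:40755457-40755486, minus strand, half-site 185 to 176 bases upstream): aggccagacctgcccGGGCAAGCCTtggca
Sesn1 (chr10:41887250-41887279, plus strand, half-site 173 to 164 bases upstream of one of its 2 listed starts): tgggcgcttggccttcAAGCTTGTTTttgc
Mdm2 (chr10:117710925-117710954, minus strand, half-site 186 to 177 bases upstream): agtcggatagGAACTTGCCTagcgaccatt
Trp53 (chr11:69580274-69580303, plus strand, half-site 75 to 66 bases upstream): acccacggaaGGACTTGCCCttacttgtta

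Values below are log2 signals relative to the 75th percentile of the same array, and a level of 2 thus means a signal 4 times that percentile. Differences are 3D minus 2D in log2 units. Levels are followed only within a probe across arrays, and the sums over marker lists given further on follow a list across arrays in the same way. On the 4 arrays 23061 to 24413 of 41174 probes were well above background, and the 75th percentile lay between 399 and 617 intensity units. By limma, 0 of 16451 genes passed an adjusted p under 0.05 between 3D and 2D (0%), and 1159 had an unadjusted p under 0.05 (7.05%). With the experiment as a block these were 0 (0%) and 2175 genes (13.2%). The number of arrays limits the precision. The 2 arrays of a culture came from the 2 preparations, and how many cultures stood behind each array is not said. The p-values measure only the spread between these arrays. Between cultures without the block, that spread includes differences between the preparations.

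Between 3D and 2D no member passed the test, and relative to the 75th percentile most differed in direction between the experiments. For 7 of the 10 members the brightest probe differed in opposite directions in the 2 experiments, whereas 33.8% of all tested genes did so. This count includes Bbc3 and Mdm2, whose differences in iHep-1 were only 0.03 and 0.06. It also depends on the probe, as the 10-spot probes of Trp53 and Mdm2 were lower in 3D in both experiments. Mdm2, Ccng1, Bbc3, Phlda3 and Zmat3 were higher in 3D in iHep-1 and lower in 3D in iHep-2, a pattern of 14.8% of tested genes. Trp53 and Sesn1 had the reverse pattern, which 19.1% of genes shared. Bax and Trp53inp1 were lower in 3D in both experiments (32.8% of genes) and Pmaip1 was higher in both (33.3%). Scaled to spike-in RNA, the control transcripts added to each sample, 7 of 10 members were lower in 3D in both experiments, as were 73.6% of all tested genes. On that scale Trp53, Pmaip1 and Sesn1 were lower in iHep-1 and higher by at most 0.06 in iHep-2, the signs of 22.8% of genes. By limma 0 of 10 members had an adjusted p under 0.05, with adjusted p between 0.692 and 0.963. An unadjusted p under 0.05 occurred for 0 members, against 7.05% of all tested genes.

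**Figure D1:**
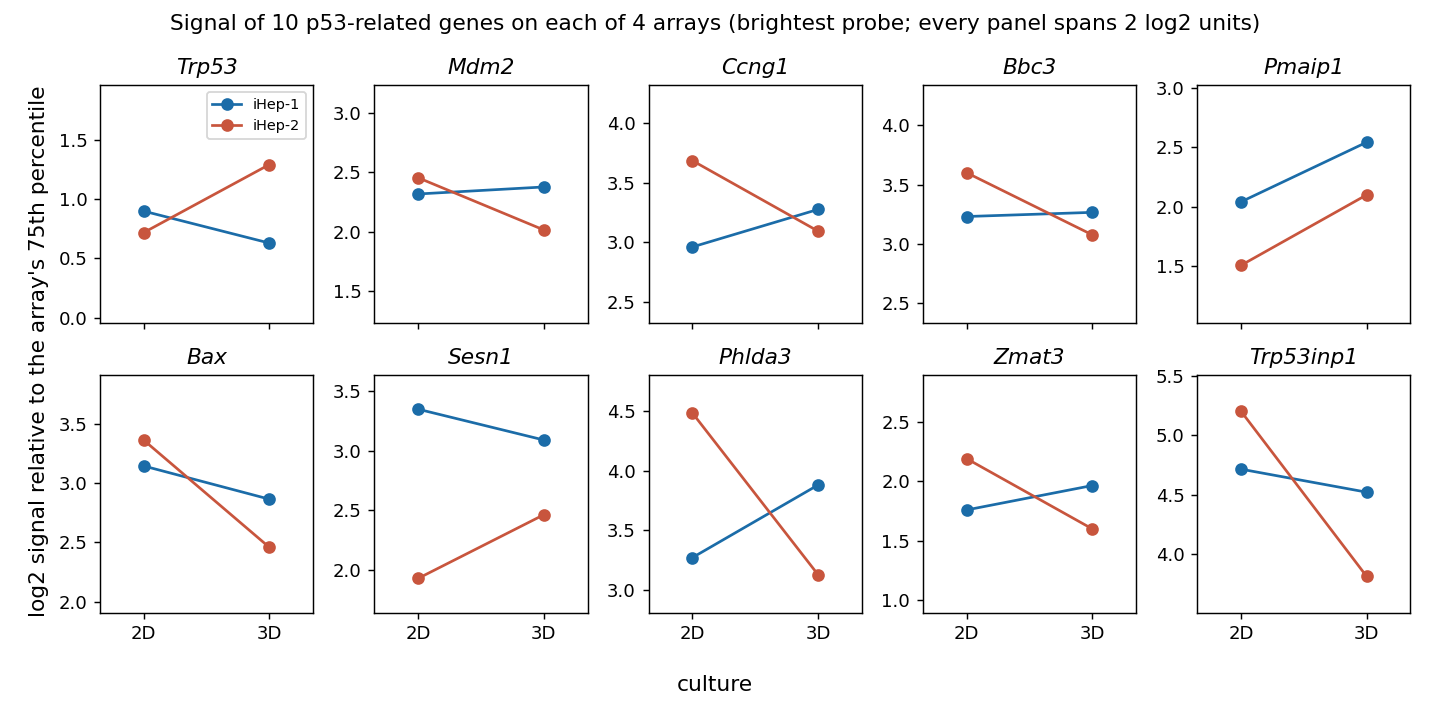
Log2 signal of each member's brightest probe relative to the array's 75th percentile, in 2D and 3D culture, with 1 point per array and a line joining the 2 arrays of an experiment (iHep-1 blue, iHep-2 red). Bax and Trp53inp1 slope down and Pmaip1 slopes up in both experiments on this scale, and in the other 7 panels the lines slope in opposite directions.

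Trp53, which encodes p53, gave different pictures by its 2 probes. The brighter probe, A_52_P781398, stood at 0.90 (2D) and 0.63 (3D) in iHep-1, and at 0.72 (2D) and 1.29 (3D) in iHep-2. Its groups overlapped, at 0.81 ± 0.13 in 2D and 0.96 ± 0.47 in 3D (SD, n = 2), with a mean difference of 0.15 (SE 0.33, 95% interval -0.80 to 1.11, adjusted p = 0.920, limma).
The other Trp53 probe, A_52_P491849, is the one printed on 10 spots. Its intensity was 383 ± 14.0 (2D) and 333 ± 11.5 (3D) in iHep-1, and 530 ± 25.7 (2D) and 166 ± 10.8 (3D) in iHep-2 (SD over 10 spots of an array). Relative to the 75th percentile these are levels of -0.45, -0.84, -0.22 and -1.27, so that both 3D arrays lay below both 2D arrays. The differences were -0.38 and -1.05, several times the spot SD of 0.050 to 0.091 log2 units, although spots of an array are not replicates of a culture. The mean difference of -0.72 (SE 0.28) had an adjusted p of 0.695 by limma over 24468 probes. In iHep-2 the 2 probes thus differed by 1.62 log2 units in their culture difference, against 0.12 in iHep-1. They lie within 9235 bases of each other on chromosome 11.

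Mdm2, the ubiquitin ligase that restrains p53, varied little between arrays by its brighter probe, A_52_P469842. This probe read 2.32 (2D) and 2.38 (3D) in iHep-1 against 2.46 (2D) and 2.02 (3D) in iHep-2. Only the 3D array of iHep-2 stood below the other 3 arrays by more than they differed among themselves. The mean difference was -0.19 (SE 0.25, 95% interval -0.92 to 0.54, adjusted p = 0.858, limma).
On the 10-spot probe A_51_P201346, Mdm2 intensity was 268 ± 9.14 (2D) and 261 ± 12.0 (3D) in iHep-1, and 344 ± 18.8 (2D) and 146 ± 6.85 (3D) in iHep-2 (SD over spots). After scaling, this probe differed by -0.22 and -0.61 log2 units, and its groups did not overlap. Both probes therefore place the lowest Mdm2 signal on the 3D array of iHep-2, while they differ in sign for iHep-1, where the brighter probe was higher by 0.06.

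Ccng1 encodes cyclin G1, which recruits a phosphatase to Mdm2 and is among the most responsive p53 targets. It stood at 2.96 (2D) and 3.28 (3D) in iHep-1, and at 3.69 (2D) and 3.09 (3D) in iHep-2 by its brighter probe. The highest and the lowest value were thus both from 2D arrays. The second probe showed the same order within each experiment with larger differences, 0.84 in iHep-1 and -0.80 in iHep-2, against 0.32 and -0.59.

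Among the inducers of cell death, Bax was lower in 3D in both experiments. Bax encodes the protein that opens pores in the outer mitochondrial membrane. Its 10-spot probe read 3.14 (2D) and 2.86 (3D) in iHep-1, and 3.36 (2D) and 2.46 (3D) in iHep-2. Both 3D arrays lay below both 2D arrays, as was so for 21.5% of all tested genes. The intensities were 4637 ± 140 and 4331 ± 83.3 in iHep-1 and 6331 ± 126 and 2194 ± 56.6 in iHep-2 (SD over 10 spots). The differences of -0.28 and -0.90 had a mean of -0.59 (SE 0.27, 95% interval -1.37 to 0.19, adjusted p = 0.692, limma), the smallest adjusted p of the members.

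Bbc3 encodes PUMA, a BH3-only protein that releases Bax from its inhibitors. It read 3.23 (2D) and 3.27 (3D) in iHep-1, and 3.60 (2D) and 3.08 (3D) in iHep-2. In iHep-1 the cultures differed by only 0.03, so its spread came from the 2 arrays of iHep-2. Pmaip1 encodes Noxa, the BH3-only protein that neutralises Mcl1. It stood at 2.04 (2D) and 2.54 (3D) in iHep-1, and at 1.51 (2D) and 2.10 (3D) in iHep-2. It was the only member higher in 3D in both experiments, by 0.50 and 0.59, though with spike-in scaling it differed by -1.17 and 0.06, and its groups did not overlap, like 20% of all tested genes. The mean difference of 0.55 (SE 0.33, 95% interval -0.41 to 1.51) had an adjusted p of 0.723 by limma, and of 0.409 with the experiment as a block. The 3 death inducers thus did not share a direction.

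Phlda3, a competitor of AKT for membrane lipids, had the widest gap between experiments in its culture difference. Its signal was 3.27 (2D) and 3.88 (3D) in iHep-1, and 4.49 (2D) and 3.13 (3D) in iHep-2. The 2D arrays alone differed by 1.22, and the 2D and 3D ranges overlapped. The culture difference was 0.61 in iHep-1 and -1.36 in iHep-2, with a mean of -0.37 (95% interval -2.04 to 1.29). Whether a difference of this kind between the experiments exceeds error could not be tested, since each had 1 array per culture.

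Zmat3, a zinc finger protein that binds RNA, read 1.76 (2D) and 1.96 (3D) in iHep-1, and 2.19 (2D) and 1.60 (3D) in iHep-2. Its second probe was not well above background on any array and was not tested. Trp53inp1, a nuclear protein that promotes p53 activity and autophagy, stood at 4.72 (2D) and 4.52 (3D) in iHep-1, and at 5.20 (2D) and 3.81 (3D) in iHep-2. Both 3D arrays were below both 2D arrays, as for 21.5% of all tested genes. The mean difference of -0.79 (SE 0.38, 95% interval -1.90 to 0.32, adjusted p = 0.700, limma) was the largest of the members by brightest probe. Its second probe differed by -0.07 and -1.59, so by both probes most of the difference came from iHep-2.

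Sesn1 encodes sestrin 1, which restrains growth signalling through mTORC1 under stress. It differed between the experiments more than between the cultures. It read 3.35 (2D) and 3.09 (3D) in iHep-1, and 1.93 (2D) and 2.46 (3D) in iHep-2. Both arrays of iHep-2 lay below both arrays of iHep-1. The 3 Sesn1 probes, which span 9854 bases of chromosome 10, gave culture differences of -0.16 to -0.27 in iHep-1 and 0.49 to 0.56 in iHep-2. The 3 probes therefore agreed within 0.11 log2 units in iHep-1 and 0.07 in iHep-2.

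**Figure D2:**
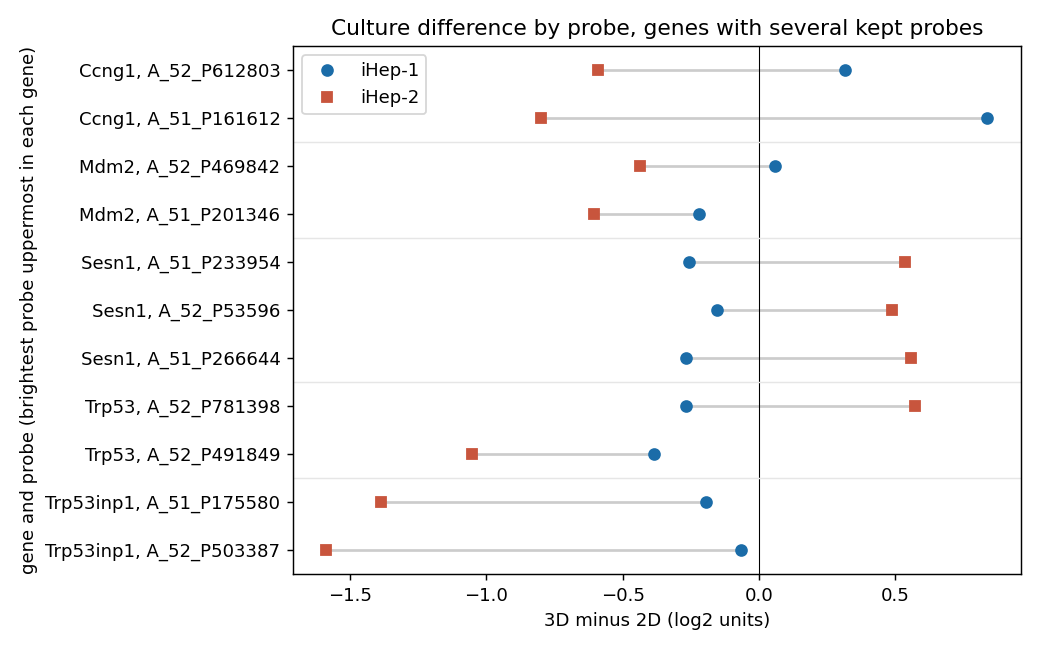
Culture difference (3D minus 2D, log2 units) of each kept probe of the 5 members with several such probes, with 1 point per experiment (iHep-1 blue circles, iHep-2 red squares). The 3 Sesn1 probes coincide, whereas in iHep-2 the Trp53 probes lie at 0.57 and -1.05.

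With culture kept in the model, the iHep-2 arrays had less Sesn1 signal, with differences of -1.42 in 2D and -0.63 in 3D (iHep-2 minus iHep-1). The mean was -1.03 (SE 0.31, 95% interval -1.97 to -0.08), with an unadjusted p of 0.0399 and an adjusted p of 0.251 by limma. In this comparison 305 of 16451 genes passed an adjusted p under 0.05 (1.85%), and 0 of the 10 members did. With no adjustment, 2926 genes (17.8%) and 1 member, Sesn1, had a p under 0.05. Pmaip1 was also lower in iHep-2 in both cultures, with differences of -0.53 and -0.44 (adjusted p = 0.407, limma). For each of the other 8 members the sign of the experiment difference changed between 2D and 3D.

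Relative to the 75th percentile, most members had their brightest array in 2D of iHep-2. That array held the highest value of 7 of the 10 members, against 25.6% of all tested genes, and the 3D array of iHep-2 held the lowest value of 6, against 28.3%. With spike-in scaling these counts were 3 of 10, against 14.5% of genes, and 2 of 10, against 12.4%. Averaged over the members after centring each on its own mean, the profile was 0.01 (2D) and 0.08 (3D) in iHep-1, and 0.16 (2D) and -0.25 (3D) in iHep-2. Mdm2, by its brighter probe, came closest to this mean profile, at a root mean square distance of 0.01 log2 units over the 4 arrays. Sesn1 was farthest, at 0.58. Each member is itself part of this mean, in which opposite directions partly cancel. By the brightest probe, at least 2-fold differences in an experiment occurred for 2 of 10 members, Phlda3 and Trp53inp1, both in iHep-2, against 25.7% of tested genes in at least 1 experiment. The 10-spot Trp53 probe, at -1.05 in iHep-2, was also past 2-fold.

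**Figure D3:**
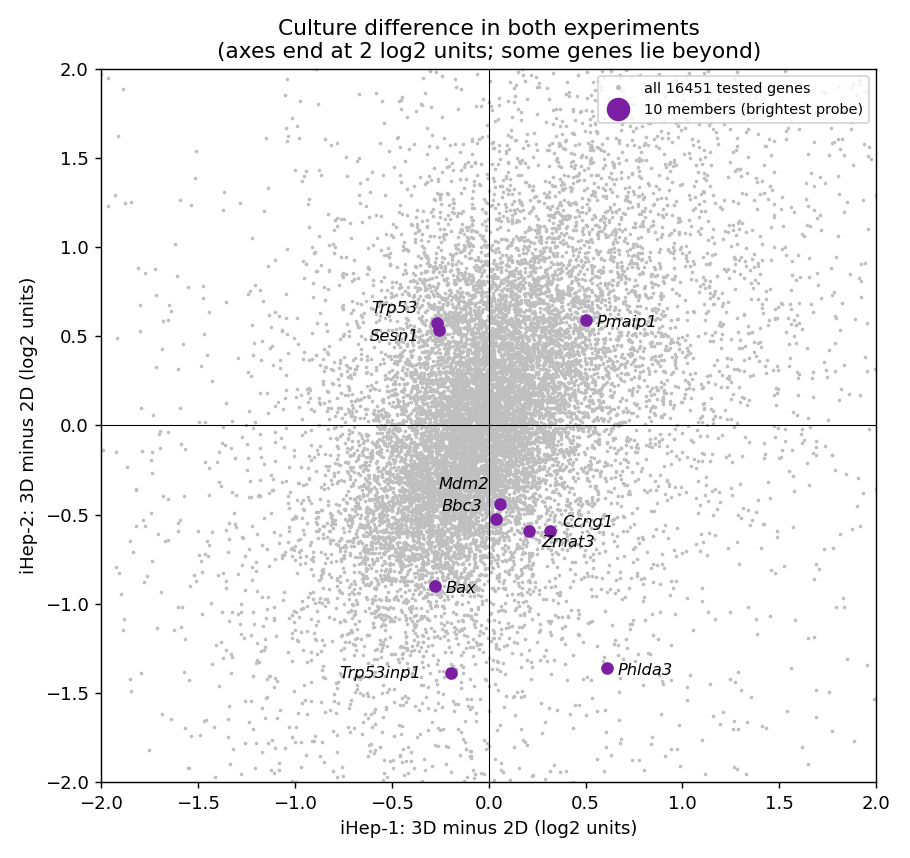
Culture difference (3D minus 2D, log2 units) in iHep-1 on the horizontal and iHep-2 on the vertical axis, for the 16451 tested genes in grey and the 10 members in purple. The 5 members in the lower right quadrant are Mdm2, Bbc3, Zmat3, Ccng1 and Phlda3, the last at 0.61 and -1.36.

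Other p53 targets were mixed in direction relative to the 75th percentile. Of 38 further targets, 35 were tested, 12 were higher and 9 lower in 3D in both experiments, and 14 were opposed. The shares of all tested genes were 33.3%, 32.8% and 33.8%. With spike-in scaling 1 was higher and 24 were lower in both, and 73.6% of all tested genes were lower. The further targets had a median difference of 0.12 in iHep-1 and -0.05 in iHep-2. The medians were 0.05 and -0.56 for the members and -0.02 and 0.04 for all tested genes. By limma 0 of the 35 passed the adjusted threshold, and 3 had an unadjusted p under 0.05 (Cdkn1a, Plk3 and Gadd45a). The shares of all tested genes were 0% and 7.05%. With spike-in scaling 1 passed (Ckap2), as did 292 of all 16451 tested genes. However, among the genes named here p-values on that scale followed the size of the difference alone. Cdkn1a, which encodes the cell cycle inhibitor p21, was at 1.30 and 1.33 in 2D and at 2.68 and 2.72 in 3D (iHep-1 first). Both 3D arrays lay above both 2D arrays, as for 20% of all tested genes, with differences of 1.38 and 1.39 (SE 0.21, adjusted p = 0.684, limma). With spike-in scaling, however, Cdkn1a was lower in 3D in iHep-1 (-0.29) and higher in iHep-2 (0.85).

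Plk3, a stress-activated kinase, differed by 1.02 and 0.96, though its mean turned to -0.12 with spike-in scaling, which left it lower in iHep-1 (-0.66) and higher in iHep-2 (0.42). Ak1, an adenylate kinase, stood at -1.91 (2D) and 0.05 (3D) in iHep-1, and at -2.80 (2D) and -1.70 (3D) in iHep-2. Its mean difference of 1.53 (SE 0.76) was 0.43 with spike-in scaling, and 0.66 without the 3D array of iHep-1. Gadd45a, which acts in growth arrest and repair, differed by -1.01 and -3.24, and Sesn2, a sestrin that the amino acid and unfolded protein responses also induce, by -1.16 and -1.26. Ckap2, a spindle protein of cycling cells, differed by -0.95 and -4.53. These 5 genes had an adjusted p of 0.684 to 0.706 by limma, or of 0.289 to 0.396 with the experiment as a block.

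Genes that regulate p53 were divided in iHep-1, with 7 higher and 7 lower in 3D. In iHep-2, 12 of 14 were lower, against 7833 of all 16451 tested genes. Of 16 listed regulators 14 were tested, with medians of -0.02 in iHep-1 and -0.35 in iHep-2. In both experiments 2 were higher and 7 lower, against 33.3% and 32.8% of all tested genes. With spike-in scaling 0 were higher and 14 lower in both, and 73.6% of all tested genes were lower. Relative to the 75th percentile, 0 regulators passed the adjusted threshold or an unadjusted p under 0.05 by limma, against 0% and 7.05% of all tested genes. Mdm4, the partner of Mdm2 that masks the activation domain of p53, differed by -0.22 and -0.02. Usp7, which removes ubiquitin from Mdm2 and p53, differed by 0.01 and 0.18, and the p53 relative Trp73 by 0.02 and 0.39, and with spike-in scaling their means were -1.01 and -0.90. The checkpoint kinases had wider differences, of -0.62 and -2.69 for Chek1 and -0.34 and -2.30 for Chek2. Rchy1, another ubiquitin ligase of p53, differed by -0.15 and -0.15.

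The rest of the BCL-2 family, to which Bax, Bbc3 and Pmaip1 belong, was mixed. Of 12 listed genes 11 were tested, with 4 higher and 2 lower in both experiments, against 33.3% and 32.8% of all tested genes. With spike-in scaling these were 1 and 8, and 73.6% of all tested genes were lower. The list's medians were 0.18 and 0.08. By limma 0 passed the adjusted threshold and 2 had an unadjusted p under 0.05 (Bok and Bmf), against 0% and 7.05% of all tested genes. Bok, a Bax relative, stood at -1.51 and -1.42 in 2D against 1.67 and 0.55 in 3D. Both 3D arrays thus lay above both 2D arrays, as for 20% of all tested genes (mean difference 2.58, SE 0.47, adjusted p = 0.684, limma). The BH3-only genes Bmf and Bik were higher in 3D by 0.96 and 1.48 and by 1.04 and 1.50, but with spike-in scaling both were lower in iHep-1, at -0.72 and -0.64. Bid differed by -0.92 and -0.75. Bcl2, the death inhibitor, differed by -0.41 and -2.66.

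Among all of these pathway genes, Ercc5, a repair nuclease, had the array profile most like the mean of the members, at a distance of 0.06 log2 units over the 4 arrays. It was followed by Bcl2l1, which encodes the death inhibitor BCL-XL, at 0.10 and Trp53bp1, a damage response adaptor, at 0.11.

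**Figure D4:**
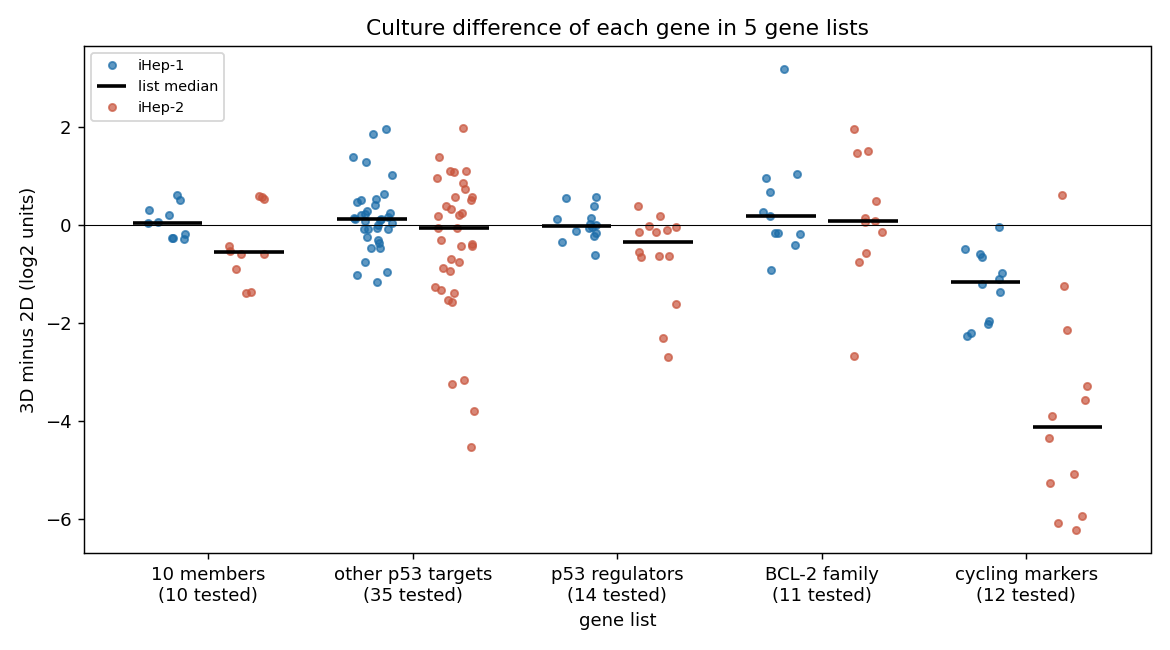
Culture difference (3D minus 2D, log2 units) of every tested gene in 5 gene lists, with 1 point per gene for iHep-1 (blue) and iHep-2 (red) and a bar at the list's median. The members' medians are 0.05 and -0.56, and those of the cycling markers are -1.16 and -4.12.

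Relative to the 75th percentile, markers of cycling cells had their highest and lowest sums on the arrays where most members did. Of 12 such genes, 11 were lower in 3D in both experiments, against 32.8% of all tested genes. Mki67, a marker of cycling cells, stood at 0.97 (2D) and -1.05 (3D) in iHep-1, and at 2.60 (2D) and -2.66 (3D) in iHep-2. Top2a, the topoisomerase of dividing cells, differed by -1.95 and -5.09. The summed signal of the 12 genes, in multiples of the 75th percentile, was 22.3 (2D) and 15.5 (3D) in iHep-1, and 55.7 (2D) and 12.3 (3D) in iHep-2. The array with the highest sum, 2D of iHep-2, was also the brightest for 7 of 10 members, and the array with the lowest sum, 3D of iHep-2, was the dimmest for 6. With spike-in scaling, 2D of iHep-2 was the brightest array for 3 of 10 members but for 11 of 12 cycling markers, and 3D of iHep-2 the dimmest for 2 and 8. In iHep-1 the sum was lower in 3D while 6 of 10 members were higher. The part of cycling cells in the members' values was not tested.

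Markers of other cell types also differed between arrays. Hepatocyte markers were present, with 8 of 10 tested, and Alb, the plasma protein albumin, lay between 8.81 and 9.57 on all arrays. Their summed signal was 1354 (2D) and 1088 (3D) in iHep-1, and 1182 (2D) and 2376 (3D) in iHep-2. Of the 8, 4 were higher and 1 lower in 3D in both experiments, and single markers differed widely, as the apolipoprotein gene Apoa2 by 3.29 and 8.41 and the fetal marker Afp by -6.29 and -0.22. Of 10 fibroblast markers 5 were tested, and Col1a1, Col3a1, Thy1, Dcn and Lum were not among the tested genes. The summed fibroblast signal was 17.3 (2D) and 33.8 (3D) in iHep-1, and 62.8 (2D) and 22.5 (3D) in iHep-2, and Vim, an intermediate filament of mesenchymal and many cultured cells, differed by 1.11 and -1.96. The sum of the 6 biliary markers, which include the keratin Krt19, was 16.2, 25.7, 47.0 and 30.5 in the same order. Both sums had the order within experiments seen for Phlda3 and Ccng1, but many single markers did not. Of the 5 tested fibroblast markers only 1, Vim, the brightest of them, had that order, while 2 were higher and 2 lower in 3D in both experiments. Of the 6 biliary markers 3 had that order and 3 were higher in both. Only 2 of 5 immune markers were tested, Cd14 among them, with a sum of 2.20 to 9.27, while Ptprc, Adgre1 and Itgam were not. Of 5 endothelial markers 1 was tested, Cdh5, at 0.105 times the 75th percentile or less and not well above background in 3D. The part of these cell types in the members' values was not tested, and in bulk RNA fewer cells of a type and less RNA per cell cannot be told apart.

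The sign of some members' differences depended on scaling or on single arrays. Scaling to spike-in RNA moved the median of all genes to -1.08, and on that scale all 10 members were lower in 3D on average, from -0.56 for Pmaip1 to -1.89 for Trp53inp1, with a members' median of -1.29. By experiment the members' medians were then -1.63 and -1.09, against -1.69 and -0.49 for all genes. On the main scale the mean difference had a median of -0.19 over the members and 0.02 over all genes. Leaving out 1 array turned the sign for 5 members. Without the 2D array of iHep-2, Ccng1 was at 0.22, Zmat3 at 0.02, Phlda3 at 0.23 and Sesn1 at -0.57. Without the 3D array of iHep-1, Sesn1 was at -0.18, and without the 3D array of iHep-2 Trp53 was at -0.18 and Phlda3 at 0.002. Bax, Trp53inp1, Mdm2 and Bbc3 stayed below 0 and Pmaip1 above 0 in all 4 such fits.

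**Figure D5:**
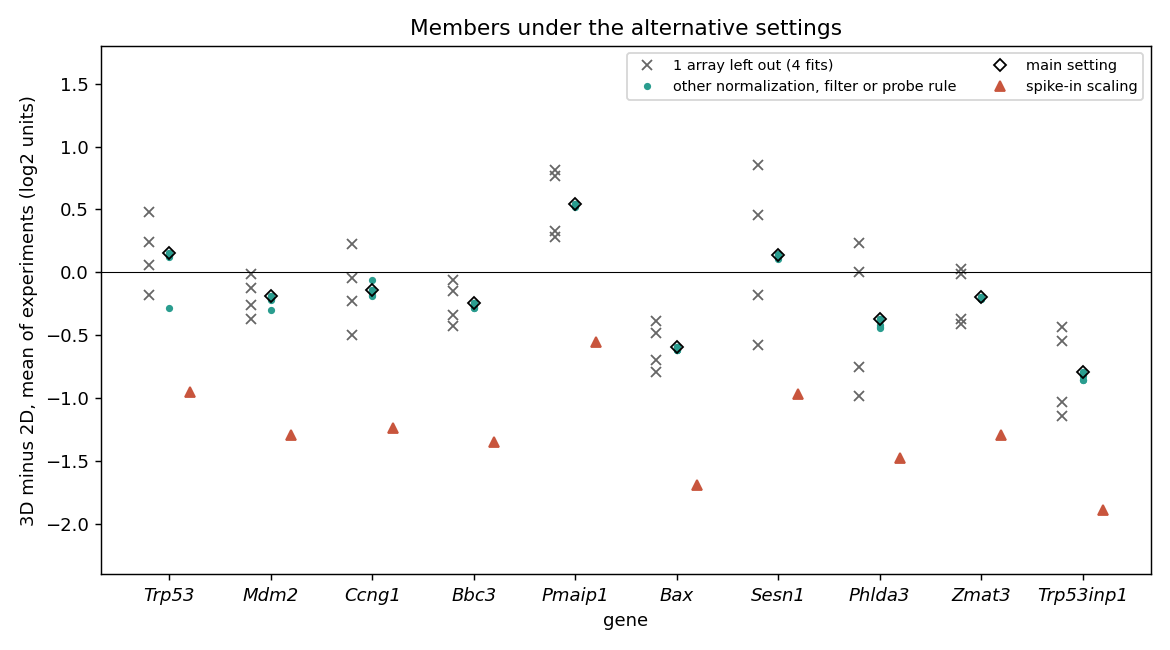
Mean difference (3D minus 2D, log2 units) of each member under the main setting (diamond), other normalizations, filters and probe rules (green), each array left out (crosses) and spike-in scaling (triangle). Bax, with -0.79 to -0.39 over the left-out arrays, stays below 0, whereas Sesn1 runs from -0.57 to 0.85.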

How the data were processed

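RNA of 4 samples was labelled with Cy3 and hybridised to 1-colour arrays of design Agilent-014868, 1 slide scanned at 1 time per the file headers. The deposited scanner files hold linear intensity values from Agilent Feature Extraction, version 10.7.1.1 per the file headers and 9.5.1.1 per the submitters' processing notes. The authors' series table holds linear intensity values that are nearly equal in distribution between the arrays of an experiment, by a method the labels do not name. Signals were taken to log2 and the 75th percentile of the array's noncontrol spots was subtracted. Outlier spots (72 to 85 per array) were left out, spots of a probe were averaged, and no spot was saturated. A probe was kept if 2 or more of the 4 arrays had it well above background, and the brightest probe stood for a gene. Of 41174 probes, 24844 were named by accession and 7855 by symbol through a RefSeq table of GRCm38.p6, and 8475 kept the file's name.

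Two-sided tests used limma (version 3.58.1, R version 4.3.3), with Benjamini-Hochberg adjustment over all genes and a threshold of 0.05. The fit was checked on simulated data. Arrays of the same number come from one preparation, per the series' design text, and so are pairs, whose deviations correlated across genes (r = 0.66). The SEs, intervals and p-values given between cultures are from the fit without these pairs, unless the block is named. Alternatives were normexp, quantile and spike-in normalization, the authors' table, other filters, probe means, the experiment as a block, and each array left out. Spike-in scaling used 6 of 10 spike-in probes, those well above background on every array.

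The members and gene lists were chosen with earlier results of these data known. Genes named outside the members are, from each pathway list, up to 3 per direction with the largest smaller difference over the 2 experiments, the 3 nearest array profiles, Cdkn1a, Mdm4, Mki67, Top2a, and from each cell type list the gene of highest mean signal, with Apoa2 and Afp added after their values were seen.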

Additional observations from a re-analysis of the deposited data

Results flagged for a closer look

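For 7 members the culture difference had opposite signs in the 2 experiments. The difference of the experiments (iHep-2 minus iHep-1, log2 units, brightest probe) was -1.97 for Phlda3, -0.91 for Ccng1, -0.80 for Zmat3, -0.56 for Bbc3 and -0.50 for Mdm2, whereas it was 0.84 for Trp53 and 0.79 for Sesn1. It was not tested, since each experiment had 1 array per culture. The opposite signs of Trp53 and Mdm2 hold for their brightest probes only, because the 10-spot probe of each was lower in 3D in both experiments.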

How the results depend on the processing

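No member passed the adjusted threshold between cultures under any of the 13 alternatives run, with adjusted p from 0.309 to 0.999. Of 130 member values under alternatives, 119 kept their sign and 11 did not. The block fits leave a mean difference unchanged, and the other filters kept the same brightest member probes. Their values equal the main ones and could not change sign, so the count of 119 overstates stability. With the experiment as a replicate block, the smallest adjusted p of a member was 0.409 and 0 genes were called, or 19 genes with an intensity trend and a robust prior added. The block changed no call on a member. Spike-in scaling called 292 genes. The spike-in level ran from 7.99 (2D of iHep-1) to 9.85 (3D of iHep-1) log2 units, and this spread enters every gene on that scale. Among the genes named here, p-values then followed the size of the difference alone, so these calls mark large differences only. Spike-in scaling gave medians of -1.29 for the members, -1.08 for other p53 targets, -1.20 for regulators and -1.11 for the BCL-2 family. It turned Trp53 to -0.95, Pmaip1 to -0.56, Sesn1 to -0.96, Plk3 to -0.12, Trp73 to -0.90 and Usp7 to -1.01, and the experiment difference of Bax to 0.0069. Probe means turned Trp53 to -0.28. Leaving out 1 array in turn gave -0.18 to 0.48 for Trp53, -0.50 to 0.22 for Ccng1, -0.57 to 0.85 for Sesn1, -0.98 to 0.23 for Phlda3, -0.41 to 0.023 for Zmat3, -0.36 to 2.89 for Bik, -0.24 to 0.0051 for Mdm4, -0.28 to 0.12 for Ercc5, -0.047 to 0.23 for Usp7 and -0.46 to 0.16 for Bcl2l1. Medians ran from -0.42 to -0.018 for the members, -0.25 to 0.040 for regulators, -0.19 to 0.076 for other p53 targets and -0.050 to 0.16 for the BCL-2 family. With 1 array left out, the lone array of a group was assumed to vary like the others. Causes beyond the smaller number of arrays were not tested. Signal over background did not limit the 16 kept member probes, which were well above background on all 4 arrays.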

Other observations

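Some further p53 targets, named here after their values were seen, also differed between the experiments. Fas, the death receptor, was at 1.70 (2D) and 1.34 (3D) in iHep-1, and at 0.17 (2D) and 1.26 (3D) in iHep-2. Perp, a desmosome protein, differed by 1.86 in iHep-1 and 0.17 in iHep-2. Gdf15, a secreted stress factor, differed by 0.12 and -1.52, and Eda2r, a receptor of the tumour necrosis factor family, by 1.29 and -1.38. With 1 array per culture in each experiment, these differences between experiments were not tested.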
